A study of Mus musculus with 3 samples.

Results

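The genes described here are the heat shock proteins and their DnaJ co-chaperones, taken as every counted gene whose symbol is Hsp followed by a, b, d, e or h and a digit, Hsp90 with any ending, or Dnaj followed by a, b or c and a digit. The rule found 70 genes among 17992 counted symbols, and it used no measured value. A total of 67 had a mean CPM (reads of a gene divided by the library total, scaled to a common size) of at least 1 over the libraries and are called measured; the other 3 were Hspb2, with 8, 4 and 9 counts in the sham, vehicle and AGNHW libraries, Hspb7, with 17, 12 and 7, and the pseudogene Dnajc19-ps, with 8, 13 and 14. The symbols include pseudogenes and gene copies, such as Dnajb6-ps and Hspd1-ps3.

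RNA-seq was done on brains of adult wild-type C57BL/6 mice, with 1 library for each of 3 groups. The sham library came from a sham-operated control, the vehicle library from the middle cerebral artery occlusion model given vehicle, and the AGNHW library from the group given AGNHW at 3 mg/g/d; the labels name the occlusion model only with the vehicle. The sources used here do not give the time after occlusion, the brain region, how many mice a library holds or what the letters AGNHW stand for. With 1 library a group there is no replicate and no test, so "higher" and "lower" below describe these libraries, and fewer cells of a type cannot be told apart from less RNA per cell.

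Heat shock proteins hold unfolded or damaged proteins in solution and refold them or pass them on for degradation. Hsp70 proteins do this in cycles of ATP hydrolysis that are started by J-domain proteins, the DnaJ family, and reset by nucleotide exchange factors such as the Hsp110 proteins, while Hsp90 completes the folding of kinases and steroid receptors, and Hsp60 (Hspd1) with its lid Hsp10 (Hspe1) works in mitochondria. When unfolded proteins build up in the cytosol, heat shock factor 1 (Hsf1) binds heat shock elements in promoters and raises transcription of the inducible members; stress in the endoplasmic reticulum (ER) acts on a separate set through the ER stress response element. Induction of the inducible Hsp70 genes is a well-known response of brain tissue to ischemia.

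The libraries held 18286151 counts (sham), 15718594 (vehicle) and 18184691 (AGNHW). The chaperone genes took 0.804% of the sham counts (95% exact binomial interval 0.800 to 0.808), 0.766% of the vehicle counts (0.762 to 0.771) and 0.798% of the AGNHW counts (0.794 to 0.802). All intervals here cover counting error only, and not the spread between animals. The vehicle library stood apart from the others by transcripts of pituitary hormones and related markers, whose summed levels were 4.41 (sham), 3745 (vehicle) and 4.60 CPM (AGNHW), and of red blood cells, at 52.8, 163 and 65.1 CPM. Choroid plexus markers summed to 543, 969 and 661 CPM, with 3 of 8 higher in vehicle than in sham. Microglia markers summed to 302, 252 and 271 CPM, with 3 of 8 lower in vehicle, P2ry12 (0.307), Fcrls (0.371) and Cx3cr1 (0.414). Neuron markers summed to 6818, 6874 and 6603 CPM, and the part of these differences in the chaperone values was not tested.

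The family was led by a few constitutive members. Mean levels ran from 0.394 to 1731 CPM with a median of 37.6, and 20 members reached 100 CPM, 33 lay between 10 and 100 and 17 lay under 10. Hsp90ab1, the constitutive cytosolic Hsp90, was at 1556 CPM in sham, 1894 in vehicle and 1743 in AGNHW. Hspa8, the constitutive cytosolic Hsp70 that also strips clathrin from vesicles, was at 1305, 1567 and 1499 CPM. Together these 2 genes held 36.6% of the chaperone counts in sham, 43.7% in vehicle and 40.8% in AGNHW. Per kilobase of transcript, Hsp90ab1 (687 CPM per kb, mean of the libraries) and Hspa8 (461) stood above Hsp90aa1 (141), and no other member passed 69.6, the value of Dnajc8.

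**Figure D1:**
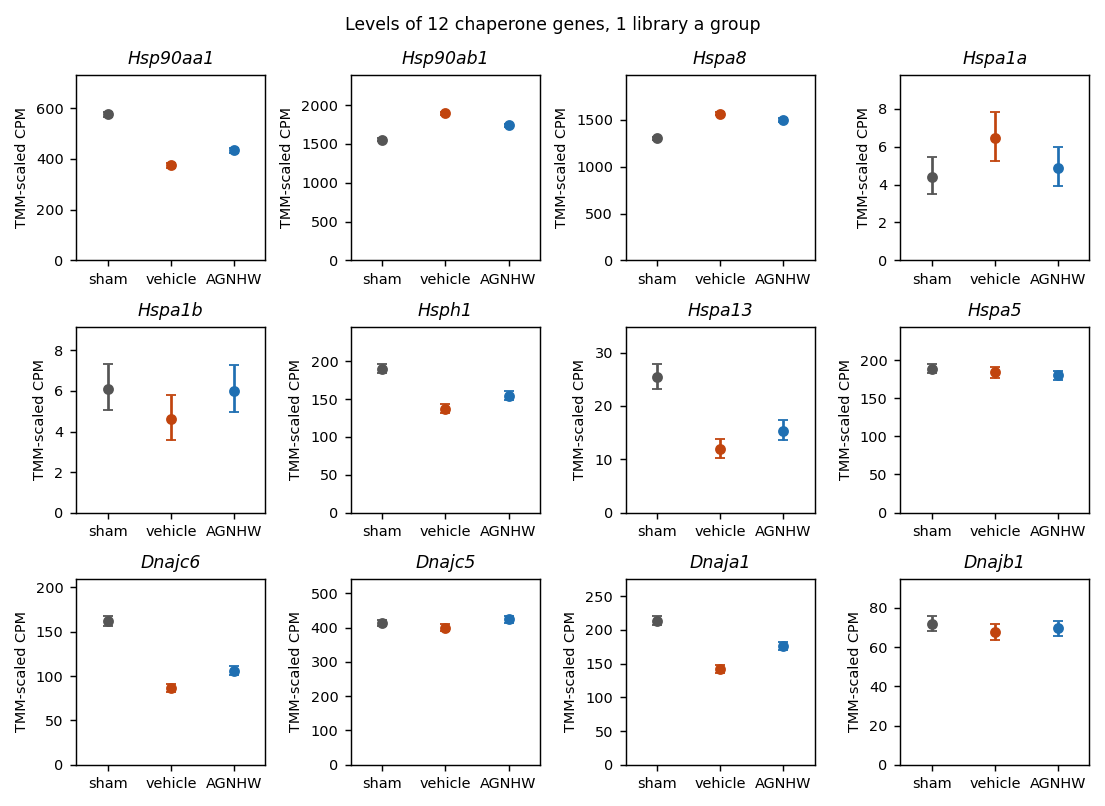
Each panel plots the TMM-scaled CPM of 1 gene in the sham, vehicle and AGNHW libraries on a linear axis that starts at 0, with a 95% interval for counting error as the bar. Hspa13, Dnajc6, Dnaja1 and Hsp90aa1 are highest in sham, Hspa8 and Hsp90ab1 are lowest in sham, and Hspa5, Dnajc5 and Dnajb1 lie close together.

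A member was called higher or lower in a comparison when its ratio of CPM, scaled by TMM (a trimmed mean over all genes), was at least 1.5 either way and the 95% exact binomial interval of that ratio excluded 1. Against sham, the vehicle library had 1 member higher and 7 lower of the 67 measured. The higher one was Dnajb13, and the lower ones were Hspa13, Dnajc6, Hspa4l, Dnajb14, Hsp90aa1, Dnajc13 and Dnaja1. Among all 15558 genes so measured, 22.8% passed the same rule, 8.66% higher and 14.2% lower, while 11.9% of the chaperones passed. With plain CPM in place of TMM the split was 0 higher and 7 lower. The median log2 ratio of the members was -0.05, beside 0.01 for all genes. Against vehicle, the AGNHW library had 1 member higher, Hspa1l, and 0 lower, where 6.57% of all genes passed, 4.01% higher and 2.56% lower. Against sham it had 0 higher and 2 lower, Hspa13 and Dnajc6, where 8.79% of all genes passed, 3.32% higher and 5.47% lower. Each library enters 2 of these comparisons, so they are not independent of each other.

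**Figure D2:**
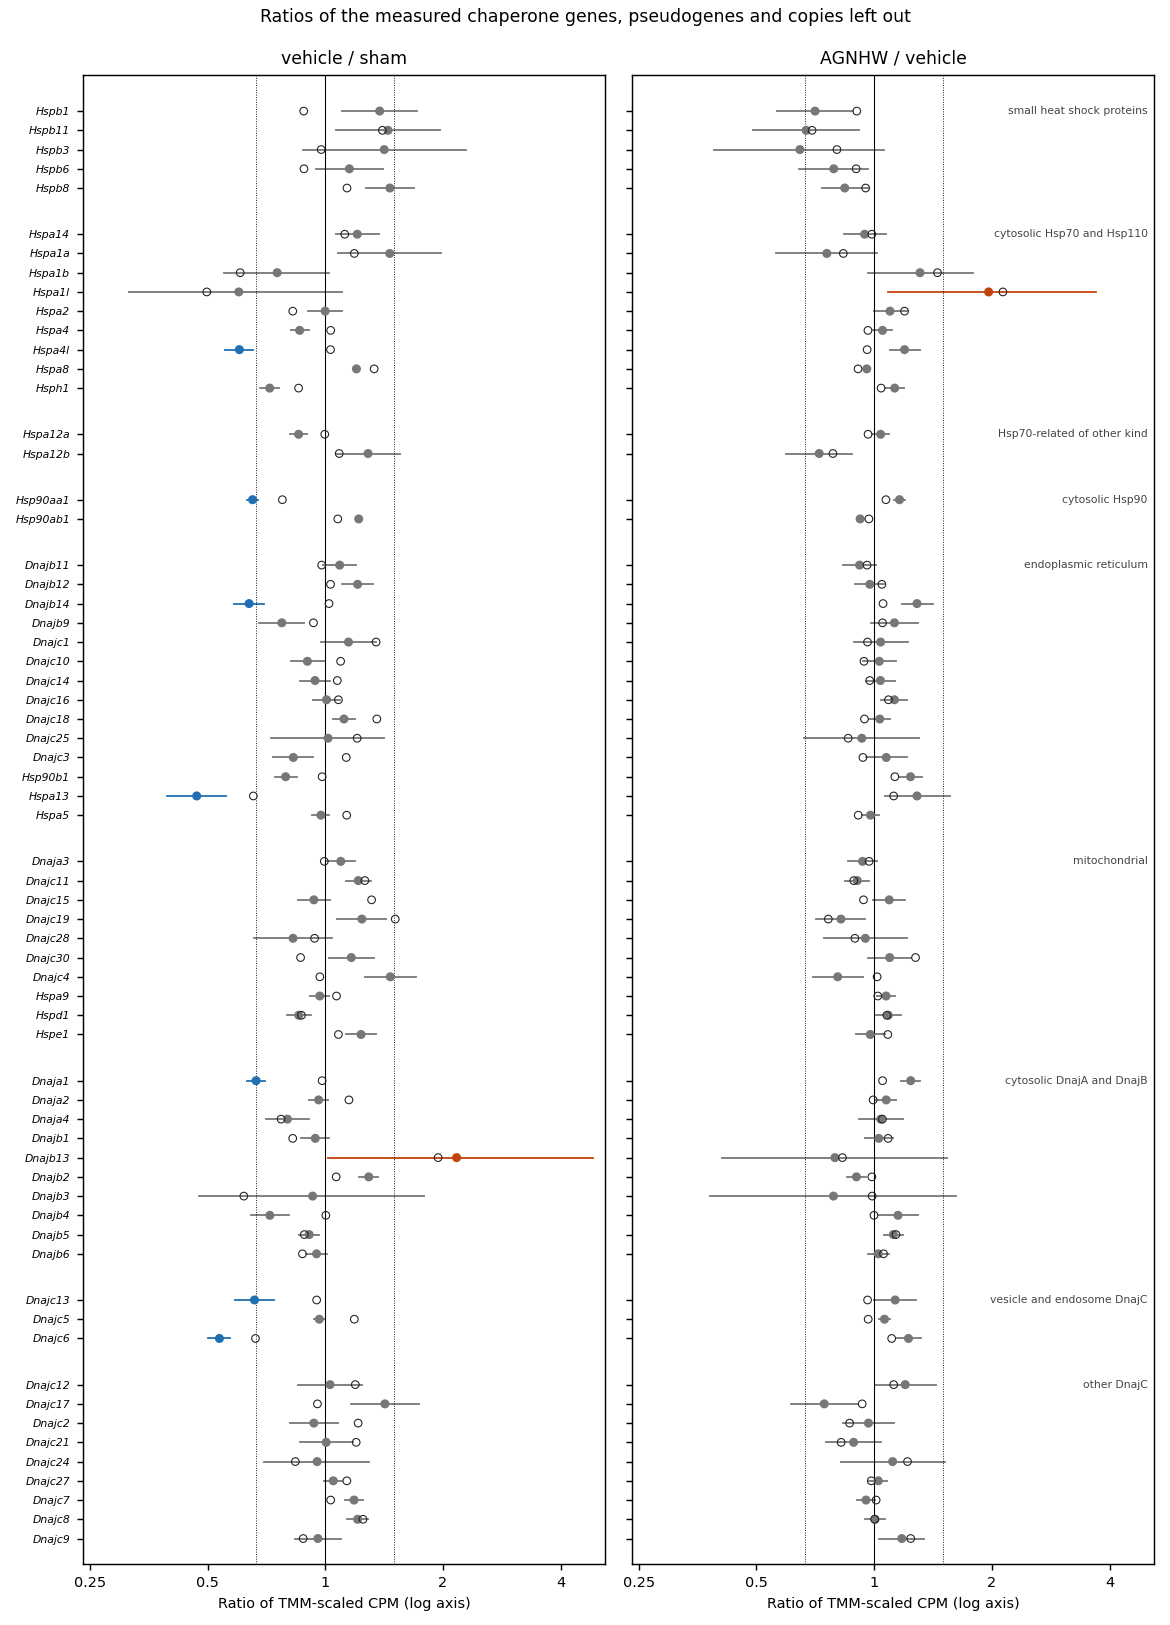
Filled points give the ratio of TMM-scaled CPM for each measured gene, pseudogenes and copies left out, by role, with bars for the 95% counting interval, dotted lines at 1.5-fold either way, and colour where the size rule was passed; open circles give the ratio after correction for transcript length and GC content. Coloured points are 1 higher and 7 lower in the left panel (vehicle over sham) and 1 higher in the right (AGNHW over vehicle).

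Transcript length moved with these ratios. Over 9941 genes of at least 10 CPM, transcript length and GC content together accounted, in a smooth fit, for 47.0% of the spread (variance) in log2 vehicle over sham, 26.9% in AGNHW over vehicle and 38.0% in AGNHW over sham. The 22 chaperones with the shortest transcripts (781 to 2520 bases) had a median of 0.26 in vehicle against sham, and the 22 with the longest (4023 to 9479 bases) had -0.18. All genes cut at like lengths had 0.28 and -0.25. Of the 7 lower members 6 were in the longest group: Hspa4l and Dnajb14 have transcripts of 9479 and 9477 bases, and the exception was Hsp90aa1.

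**Figure D3:**
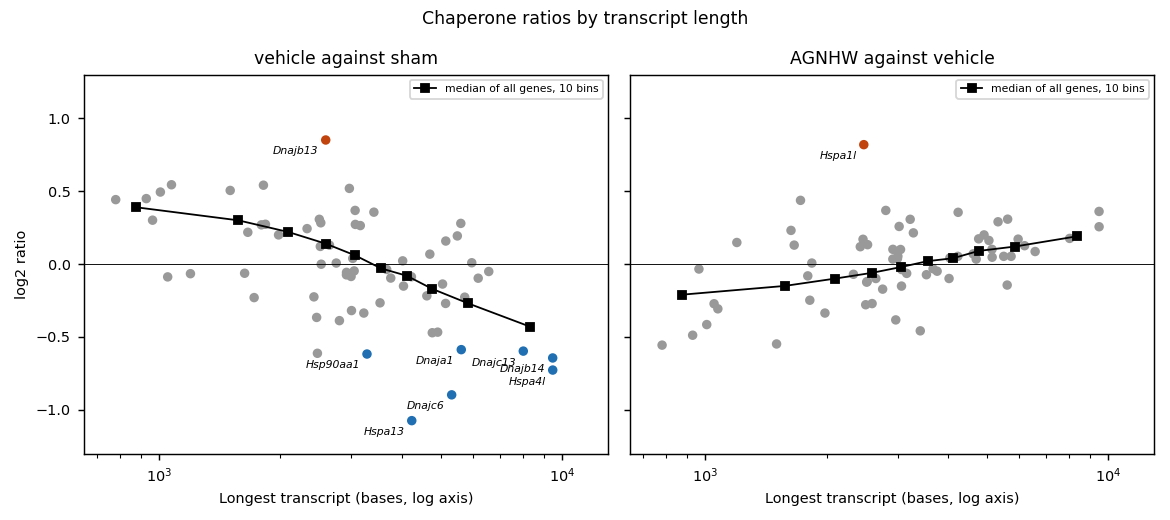
Each point is a measured chaperone gene, placed by its longest annotated transcript (bases, log axis) and its log2 ratio, with genes past the size rule in colour and named; black squares are medians of all measured genes in 10 bins of length. In the left panel (vehicle against sham) the squares run from 0.39 to -0.43, and in the right (AGNHW against vehicle) from -0.21 to 0.19.

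After that trend was subtracted, 1 member was higher and 4 were lower of the 65 with a known length, where 11.8% of all genes passed, 4.4% higher and 7.42% lower. Hspa13 at 0.655 (0.549 to 0.778) and Dnajc6 at 0.663 (0.621 to 0.707) were called before and after it. Hspa1b at 0.606 (0.444 to 0.823), Hspa1l at 0.498 (0.262 to 0.913) and Dnajc19, a subunit of the mitochondrial import motor, at 1.51 (1.31 to 1.74) were called after correction only. Hsp90aa1 came to 0.777 (0.752 to 0.802), Dnaja1 to 0.981, Dnajc13 to 0.950, Dnajb14 to 1.02 and Hspa4l to 1.03. Dnajb13 stood at 1.94 (0.913 to 4.33). The call of each of these 6 genes was thus lost. In AGNHW against vehicle Hspa1l was again the one member called, at 2.13 (1.18 to 4.01), where 4.93% of all genes passed, 3.41% higher and 1.52% lower. In AGNHW against sham 0 were called, where 5.94% of all genes passed, 2.63% higher and 3.31% lower.

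The stress-inducible Hsp70 genes Hspa1a and Hspa1b had few counts in every library. Hspa1a had 83 counts in sham, 98 in vehicle and 89 in AGNHW, and Hspa1b had 115, 70 and 110. Hspa1a thus had most counts in the vehicle library and Hspa1b fewest, and neither difference passed the rule: vehicle over sham was 1.46 (1.08 to 1.98) for Hspa1a and 0.753 (0.551 to 1.02) for Hspa1b. The genes lie near each other on chromosome 17 and their transcripts share much sequence, with 58.8% of the 50-base stretches of Hspa1a found again in Hspa1b and 62.3% of those of Hspa1b found in Hspa1a, so the split of reads between them is uncertain. Their sum was 10.5 CPM in sham, 11.05 in vehicle and 10.9 in AGNHW. Reads that fit both genes may be missing from it, as the counting settings are not given. The share of Hspa1a in that sum was 41.9% (35.0 to 49.1), 58.3% (50.5 to 65.9) and 44.7% (37.7 to 51.9).

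The likeness extends to the promoters, which are shown because they make plain how little sets the pair apart. RefSeq's promoters of 300 bases, 250 before and 50 after the transcript start, are 98.7% identical and differ at 4 bases. The 250 bases before each start are printed here from GRCm38.p6, both on the minus strand, from chr17:34972157-34972406 for Hspa1a and chr17:34959239-34959488 for Hspa1b, with the 3 differing bases in capitals.
Hspa1a: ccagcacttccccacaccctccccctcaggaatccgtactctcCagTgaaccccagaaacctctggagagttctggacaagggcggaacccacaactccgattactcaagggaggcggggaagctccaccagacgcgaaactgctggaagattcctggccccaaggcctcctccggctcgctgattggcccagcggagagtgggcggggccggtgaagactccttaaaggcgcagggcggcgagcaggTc
Hspa1b: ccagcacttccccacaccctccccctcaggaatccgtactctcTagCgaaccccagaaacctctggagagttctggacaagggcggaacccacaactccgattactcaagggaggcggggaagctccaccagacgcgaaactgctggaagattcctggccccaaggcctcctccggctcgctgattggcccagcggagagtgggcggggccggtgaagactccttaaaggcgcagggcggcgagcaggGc
The submitters' processing notes name mm9 as the build, so these coordinates are not those of the counted genes.

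Hspa1l, the Hsp70 gene of the same cluster known for its expression in testis, was the only member past the rule between AGNHW and vehicle. It had 35 counts in sham, 17 in vehicle and 40 in AGNHW, or 1.86, 1.12 and 2.19 CPM. AGNHW over vehicle was 1.96 (1.09 to 3.69). AGNHW over sham was 1.18 (0.729 to 1.91), so a difference between those libraries was not detectable at this depth.

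A list of 11 members known to be heat shock-inducible (Hspa1a, Hspa1b, Hspa8, Hspb1, Hsph1, Hsp90aa1, Dnajb1, Dnajb4, Dnaja1, Hspd1 and Hspe1) had 0 higher and 2 lower in vehicle against sham, Hsp90aa1 and Dnaja1, and 9 short of the rule. Its ratios ran from 0.652 to 1.46 with a median log2 of -0.23, and -0.20 after correction for length and GC content. After the correction 1 was lower, Hspa1b. Among all genes 8.66% were higher and 14.2% lower before the correction, and 4.4% and 7.42% after it. The summed level was 2577 CPM in sham, 2498 in vehicle and 2551 in AGNHW, of which Hspa8, also abundant without stress, held the most. Without Hspa8 the other 10 summed to 1272 CPM in sham, 931.9 in vehicle and 1052 in AGNHW. In AGNHW against vehicle 0 of the 11 passed, with a median of 0.12, and in AGNHW against sham 0 passed, with a median of -0.05.

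The inducible cytosolic Hsp90, Hsp90aa1, and its constitutive partner Hsp90ab1 differed in direction. Hsp90aa1 was at 574.9 CPM in sham, 374.6 in vehicle and 434.4 in AGNHW, highest in sham, and vehicle over sham was 0.652 (0.631 to 0.673), or 0.777 corrected. For Hsp90ab1 the same ratio was 1.22 (1.20 to 1.24), above 1 and short of the rule. After correction for length and GC content it was 1.08 (1.06 to 1.09), nearer to 1. Of the counts of both genes, Hsp90aa1 held 27.0% (26.5 to 27.4) in sham, 16.5% (16.1 to 16.9) in vehicle and 19.95% (19.6 to 20.4) in AGNHW. This pair, like the others given as shares below, was picked after its values were seen. No share of a pair was corrected for length or GC content. Of the 50-base stretches of Hsp90aa1, 58.5% recur in other annotated genes, 51.5% in Gm12346, which had 140, 60 and 106 counts beside the 10818, 5698 and 7934 of Hsp90aa1.

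**Figure D4:**
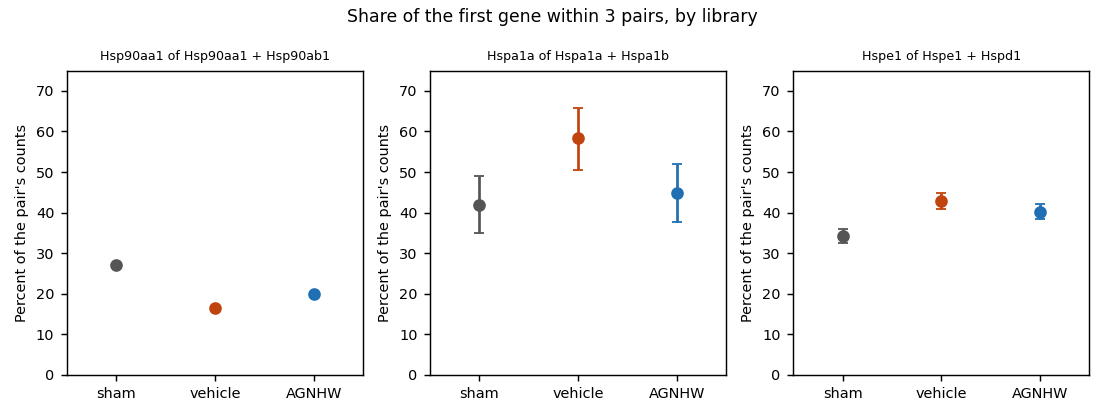
Each panel plots the percent of a pair's summed counts that the first gene held in each library, with 95% exact binomial intervals as bars. Hsp90aa1 held 27.0% of its pair in sham and 16.5% in vehicle, while Hspa1a (41.9% and 58.3%) and Hspe1 (34.2% and 42.8%) held more of theirs in vehicle.

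Hsph1, an inducible Hsp110 that resets Hsp70 by nucleotide exchange, was at 190.4 CPM in sham, 137.2 in vehicle and 154.7 in AGNHW. Its ratio of vehicle to sham was 0.721 (0.683 to 0.761), short of the rule, while that of Hspa8 was 1.20 (1.18 to 1.22). Hspa8 shares 51.4% of its stretches with 13 other symbols. Hspa4l, another Hsp110 protein, was at 92.5, 55.8 and 66.6 CPM and passed the rule as lower, at 0.603 (0.555 to 0.655), a call lost after correction for length and GC content. Hspa4, the most abundant per kilobase of the group after Hspa8, was at 181.1, 155.7 and 163.4 CPM, a ratio of 0.860 (0.815 to 0.906). Before correction all these Hsp110 genes were thus highest in the sham library, and in AGNHW they lay between the vehicle and sham values. After correction for length and GC content, vehicle over sham was 0.854 (0.809 to 0.902) for Hsph1. It was 1.03 (0.979 to 1.09) for Hspa4 and 1.03 (0.949 to 1.12) for Hspa4l, so these 2 no longer stood below sham. The distantly related Hsp70 genes Hspa12a and Hspa12b were at 211.5, 180.7 and 187.5 CPM and at 12.01, 15.4 and 11.2 CPM, with no call in any comparison.

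Of 10 cytosolic DnaJ proteins of classes A and B, 1 passed the rule as lower in vehicle against sham, Dnaja1, and 1 as higher, Dnajb13. Among all genes 14.2% were lower and 8.66% higher. Dnaja1, a farnesylated partner of Hspa8, was at 213.7 CPM in sham, 142.1 in vehicle and 176.1 in AGNHW, and vehicle over sham was 0.665 (0.631 to 0.701), or 0.981 corrected. Its close relative Dnaja2 was at 142.7, 137.2 and 147.2 CPM, a ratio of 0.961 (0.907 to 1.02), or 1.15 (1.085 to 1.22) corrected. The inducible Dnajb1 was at 71.9, 67.7 and 69.5 CPM and the inducible Dnajb4 at 45.7, 32.9 and 37.9, both short of the rule. Dnajb2, a J protein enriched in neurons, was at 128.4, 165.8 and 149.2 CPM, lowest in sham. Its ratio of 1.29 (1.22 to 1.37) was also short of the rule and came to 1.07 (1.01 to 1.13) after correction.

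Dnajb13, a J protein of the radial spokes of sperm tails and motile cilia, rests on few reads: 12 counts in sham, 21 in vehicle and 20 in AGNHW. Vehicle over sham was 2.17 (1.02 to 4.83), an interval that barely excludes 1, and with plain CPM it was 2.04 and did not pass. Of 8 markers of ependymal and other ciliated cells, 3 were higher and 2 lower in vehicle against sham, and their summed level was 39.3 CPM in sham, 47.4 in vehicle and 42.2 in AGNHW. The part of such cells in the Dnajb13 value was not tested.

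Of 14 ER members, 2 were lower in the vehicle library than in sham and none was higher, beside 14.2% and 8.66% of all genes. The median log2 ratio of the 14 was -0.06. After correction for length and GC content it was 0.11, with 10 ratios above 1 and 4 below. Hspa13, an ER-associated Hsp70 that lacks the substrate-binding domain, showed the lowest ratio of all measured chaperones. It had 480 counts in sham, 182 in vehicle and 281 in AGNHW, or 25.5, 11.97 and 15.4 CPM, with sham far above both others. Vehicle over sham was 0.469 (0.393 to 0.558) and AGNHW over sham 0.603 (0.519 to 0.700). AGNHW over vehicle was 1.29 (1.06 to 1.56), short of the rule. Dnajb14, a J protein anchored in the ER membrane, was the other, at 81.2, 51.8 and 66.6 CPM and 0.639 (0.585 to 0.696) for vehicle over sham, a call also lost after correction for length and GC content.

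The classical targets of ER stress showed no call. Hspa5 (BiP), the main Hsp70 of the ER, was at 188.8 CPM in sham, 184.0 in vehicle and 179.9 in AGNHW, and vehicle over sham was 0.974 (0.927 to 1.02). Hsp90b1 (Grp94), the ER Hsp90, was at 128.7, 101.8 and 126.1 CPM, with the smallest value in vehicle but short of the rule, at 0.792 (0.742 to 0.844) for vehicle over sham. Dnajc3, the ER co-chaperone that also inhibits the kinase PERK, was at 38.7, 32.1 and 34.4 CPM, a ratio of 0.828 (0.737 to 0.930). After correction for length and GC content, vehicle over sham was 1.13 (1.08 to 1.19) for Hspa5. It was 0.981 (0.920 to 1.05) for Hsp90b1 and 1.13 (1.01 to 1.27) for Dnajc3, so none of these genes stood below sham beyond its interval.

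Hspa5, Hsp90b1 and Dnajc3 are the only members whose RefSeq promoter holds the ER stress response element, searched on both strands as CCAAT, then NNNNNNNNN, then CCACG. It was found in 22 of 12754 promoters of counted genes (0.172%) and in 3 of the 54 members with a promoter in the table. The stretches are shown, 5′ to 3′ with the element in capitals, because they are what these 3 genes share while none of them passed the rule in any comparison. They lie at chr2:34772019-34772048 on the plus strand (Hspa5), chr14:118937821-118937850 on the plus strand (Dnajc3) and chr10:86705515-86705694 on the minus strand (Hsp90b1, which has 2 matches) of GRCm38.p6.
Hspa5: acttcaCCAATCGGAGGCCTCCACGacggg
Dnajc3: ccacaaCCAATCAGCGCCAACCACGacccg
Hsp90b1: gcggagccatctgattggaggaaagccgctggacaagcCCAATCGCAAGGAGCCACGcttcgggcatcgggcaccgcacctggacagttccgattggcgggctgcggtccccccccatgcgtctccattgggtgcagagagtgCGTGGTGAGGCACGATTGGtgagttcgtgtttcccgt
A match describes these letters and does not show that a factor bound there.

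The 10 mitochondrial members showed no call in any comparison before the correction for length and GC content, and their summed level was 582.9 CPM in sham, 609.9 in vehicle and 610.7 in AGNHW. Hspa9 (mortalin), the mitochondrial Hsp70, was at 154.7, 149.7 and 160.5 CPM. Hspd1 (Hsp60) was at 103.4, 88.4 and 96.0 CPM and its lid Hspe1 (Hsp10) at 53.6, 66.1 and 64.6 CPM, so they lay on opposite sides of sham. Vehicle over sham was 0.855 (0.797 to 0.917) for Hspd1 and 1.23 (1.13 to 1.35) for Hspe1. After correction for length and GC content it was 0.869 (0.810 to 0.932) for Hspd1. For Hspe1 it was 1.08 (0.989 to 1.18), an interval that held 1. Hspe1 held 34.2% of the pair's counts in sham (32.4 to 35.9), 42.8% in vehicle (40.8 to 44.8) and 40.2% in AGNHW (38.4 to 42.0). Hspd1 shares 44.8% of its stretches with other symbols, 42.8% with Hspd1-ps3, which had 43, 29 and 49 counts beside the 1946, 1345 and 1754 of Hspd1.

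These partners are transcribed away from each other, with 215 bases between their starts, and the bases between hold a run of heat shock element units. The run is shown because both inducible genes share it while their ratios of vehicle to sham, before correction, lay on opposite sides of 1. After correction the interval of Hspe1 held 1. In GRCm38.p6 it lies at chr1:55088053-55088082, printed on the plus strand with the units in capitals.
Hspd1-Hspe1: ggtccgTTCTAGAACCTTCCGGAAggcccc
The 4-unit element, searched as TTC, GAA, TTC and GAA in a row with NN between units, which reads the same on both strands and contains the 3-unit one, was found in 5 of 12754 promoters (0.0392%), 2 of them those of Hspd1 and Hspe1. The 3-unit form, TTC, GAA and TTC spaced in the same way, on either strand, was found in 73 (0.572%), among them 4 of the 54 members with a promoter: Hspd1, Hspe1, Hsph1 and Dnajb6. Only exact letters within the 300 bases were counted. A promoter without a match, such as that of Hspa1a or Hspa1b, is thus not shown to lack the element. The 4 members with a match had ratios of vehicle to sham from 0.721 for Hsph1 to 1.23 for Hspe1, on both sides of 1. After correction these 2 genes came to 0.854 and 1.08. Dnajb6, a suppressor of protein aggregation, was at 127.3, 120.9 and 123.8 CPM.

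The 3 J proteins of vesicle traffic had the lowest median of the role groups, -0.60 on the log2 scale in vehicle against sham, and 2 of them passed as lower. After correction for length and GC content the median was -0.07, no longer the lowest, and 1 of the 3 passed, Dnajc6. Among all genes 14.2% were lower before the correction and 7.42% after it. Dnajc6 (auxilin), which recruits Hspa8 to clathrin-coated vesicles in neurons, was at 161.8 CPM in sham, 86.7 in vehicle and 106.1 in AGNHW, so sham again stood above both others. Vehicle over sham was 0.536 (0.502 to 0.572), AGNHW over sham 0.656 (0.619 to 0.694) and AGNHW over vehicle 1.22 (1.14 to 1.31). Gak, the widely expressed relative of auxilin that the symbol rule does not cover and that was picked after its values were seen, was at 118.3, 131.1 and 121.5 CPM. Dnajc13, an endosomal J protein, was at 45.4, 29.9 and 33.8 CPM with a ratio of 0.659 (0.587 to 0.740), or 0.950 corrected. Dnajc5, the cysteine string protein of synaptic vesicles, was at 413.8, 399.4 and 424.1 CPM. Its vehicle to sham ratio was 0.965 (0.933 to 0.998), and 1.19 (1.15 to 1.23) corrected, on the other side of 1. Dnajc6 held 28.1% of the counts of Dnajc6 and Dnajc5 in sham (27.3 to 29.0), 17.8% in vehicle (17.0 to 18.7) and 20.01% in AGNHW (19.2 to 20.8).

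Of the remaining DnaJ proteins of class C, none of 9 passed. The most abundant per kilobase were Dnajc8, which associates with the spliceosome, at 112.1, 135.5 and 136.1 CPM, and Dnajc7, which bridges Hsp70 and Hsp90, at 140.6, 166.4 and 158.5 CPM.

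The genes with an Hspb symbol were the group with the highest median in vehicle against sham, 0.45 on the log2 scale. None of the 5 measured passed the rule. Most are small heat shock proteins, which bind unfolded proteins without using ATP, but Hspb11 (4.41, 6.38 and 4.27 CPM) stands here by its symbol alone. All 5 ratios were above 1 for vehicle over sham, from 1.15 to 1.46, and all 5 were below 1 for AGNHW over vehicle, from 0.645 to 0.841. After correction for length and GC content the median for vehicle over sham was -0.09, with 2 ratios above 1 and 3 below. Their summed level was 47.2 CPM in sham, 63.7 in vehicle and 49.7 in AGNHW. Cryab (alpha B-crystallin), a small heat shock protein that the symbol rule leaves out, was at 94.3, 81.7 and 85.7 CPM, more than these together, with ratios on the other side of 1: vehicle over sham was 0.866 (0.804 to 0.931) and AGNHW over vehicle 1.05 (0.974 to 1.13). Hspb1 (Hsp27) was at 8.45, 11.6 and 8.21 CPM, and vehicle over sham was 1.38 (1.10 to 1.72). Of its 50-base stretches 51.6% recur in Hsp25-ps1. Hspb8, which works with Bag3 in selective autophagy, was at 19.6, 28.7 and 24.1 CPM, a ratio of 1.46 (1.27 to 1.68). Smooth muscle and pericyte markers, cells in which several of these proteins are abundant, summed to 147, 149 and 154 CPM over 7 genes, of which 2 were higher in vehicle than in sham and 0 lower. The contractile markers Acta2 (1.68), Des (1.56) and Myh11 (1.43) were above 1 for vehicle over sham, as all 5 Hspb ratios were. For AGNHW over vehicle they were below 1, at 0.775, 0.725 and 0.823, as the Hspb ratios also were. Cnn1 (1.05 and 0.905) lay on the same sides, with intervals that held 1. Kcnj8 was above 1 in both (1.22 and 1.46), and Rgs5 (0.766 and 1.14) and Pdgfrb (0.858 and 1.31) lay on the other sides. The contractile markers were singled out after their values were seen. After correction their log2 ratios of vehicle to sham were 0.57 (Acta2), 0.33 (Des) and 0.603 (Myh11), beside the Hspb median of -0.09. Summed levels of skeletal muscle markers were 10.2, 13.5 and 11.0 CPM over the 5 counted of 8. The part of muscle cells in the small heat shock protein values was not tested.

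The regulators and partners of these chaperones, which the symbol rule does not cover, were read from lists of other pathway genes. Hsf1 was at 54.2 CPM in sham, 62.2 in vehicle and 59.4 in AGNHW, with vehicle over sham at 1.15 (1.05 to 1.26). Of the 3 measured heat shock factors Hsf4 passed as higher than sham in both vehicle and AGNHW, at 1.61 each. It was at 19.5 CPM in sham, 31.4 in vehicle and 31.4 in AGNHW. Among all genes 8.66% were higher than sham in vehicle and 3.32% in AGNHW. Of 34 measured genes of the co-chaperone list, which also held Cryab, 5 were higher in vehicle than in sham and 2 lower. The share of all genes was 8.66% higher and 14.2% lower, and the median of the 34 was 0.19. The higher ones were Fkbp5, the Hsp90 partner that restrains glucocorticoid receptors, at 54.7, 145 and 140.3 CPM, the nucleotide exchange factors Bag1 (1.51) and Sil1 (1.58), Fkbp8, anchored in the outer mitochondrial membrane (1.64), and the mitochondrial Hsp90 Trap1 (1.51). The lower ones were Chordc1, an Hsp90 partner, at 0.601 and Tomm70a, the import receptor that docks Hsp70 and Hsp90, at 0.663. The Fkbp5 ratio of 2.65 for vehicle over sham had a counterpart of 2.57 for AGNHW over sham. After correction for length and GC content 3 of the 34 were higher in vehicle than in sham (Fkbp5, Cdc37 and Grpel1) and 1 lower, the small heat shock protein Cryab. Among all genes 4.4% were then higher and 7.42% lower. In AGNHW against vehicle 1 co-chaperone passed, Hspbap1, at 1.54, and none did after that correction.

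The chaperonin CCT and prefoldin fold actin and tubulin. Of 16 measured genes on a list of their subunits and related proteins, 4 were higher in vehicle than in sham and 0 lower, with a median of 0.23. The higher ones were Pfdn2 (1.51), Pfdn5 (1.52), Pfdn6 (1.52) and Pdrg1 (1.503). After correction for length and GC content these 4 calls were lost, and another of the 16, Cct7, was higher. Among all genes 8.66% were higher before the correction and 4.4% after it. Hsf4 lost both of its calls after the same correction.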

How the data were processed

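The deposited files hold whole-number read counts per gene symbol, 1 file for each library, made by the authors with Bowtie2 2.2.3, TopHat2 2.0.12 and HTSeq 0.6.0 on mm9, per the submitters' processing notes; the sources used here do not give their order, settings or strand, and without the strand the reads of genes that overlap on opposite strands may be mixed. Every listed gene has at least 21 counts over the 3 libraries.

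TMM factors came from edgeR 4.0.16, log2 ratios used a prior count of 5, and intervals were exact. Transcript lengths and GC content were matched by symbol to GENCODE M21 (68 of 70 members), and promoters to RefSeq on GRCm38.p6 (54 of 70). The length and GC trend was a spline fitted with scikit-learn 1.9.0 and tested on simulated data. Alternatives were plain CPM, DESeq2 1.42.0 size factors, a fold of 2, a prior count of 1, no filter, the trend subtracted and, chosen after seeing the data, Hspa1a and Hspa1b summed.

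Members named are those past the size rule, the inducible list and the 2 of highest CPM per kb in each role group; other pathway genes are those past the rule and Hsf1, and any other gene is marked as picked after its values were seen or stands beside a named one for its place in the pathway or promoter table. Some genes are not reported here. Members and lists were chosen with earlier results of these data known.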

Additional observations from a re-analysis of the deposited data

How the results depend on the processing

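In vehicle against sham, the 8 members past the rule became 2 with a fold of 2 (Dnajb13 higher, Hspa13 lower) and 5 after correction for length and GC content; plain CPM gave 7, and DESeq2 size factors, no filter on low values, and Hspa1a and Hspa1b summed gave 8. In AGNHW against vehicle, the 1 became 0 with a fold of 2 and was 1 under the others. In AGNHW against sham, the 2 became 0 with a fold of 2 and 0 after the correction, and were 2 under the others. Subtracting the trend turned the ratio of vehicle to sham of Dnajb14 to 1.02 and of Hspa4l to 1.03; the cause was not tested. The members' median log2 ratio moved by less than 0.1 under each alternative, but its sign turned: the corrected medians were 0.04, -0.02 and 0.04, beside -0.05, 0.04 and -0.02. Plain CPM shifted the median of all genes to -0.07 in vehicle against sham and took the share of higher among all genes called from 37.9% to 23.9%; in AGNHW against vehicle that share went from 61.1% to 72.3%. Dnajb13 and Hspa1l rest on 12 to 21 and 17 to 40 counts. With 1 library a group, no spread between animals can be had, no library can be left out, and no paired analysis was possible because no group has a replicate.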

Other observations

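Dnajc4, Dnajb9 and Hspa2 were called in no comparison and were picked after their values were seen. Dnajc4, a J protein of mitochondria, was at 16.9, 24.9 and 20.04 CPM in the sham, vehicle and AGNHW libraries. Its vehicle to sham ratio was 1.47 (1.26 to 1.71) and came to 0.968 after correction for length and GC content. Dnajb9, an ER J protein induced by the unfolded protein response, was at 31.1, 24.1 and 27.1 CPM, a ratio of 0.774 (0.677 to 0.884) and 0.933 after correction. Hspa2, an Hsp70 known for its role in sperm formation, was at 48.6, 48.5 and 53.2 CPM, with vehicle over sham at 0.999 (0.905 to 1.10).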
